A study of Mus musculus with 212 samples.

Results

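The insulin-like growth factor (IGF) genes described here are the ligand gene Igf1, the receptor genes Igf1r and Igf2r, and 6 genes of secreted IGF binding proteins, Igfbp2 to Igfbp7. They were chosen by symbol, as 9 of the 47631 genes in the deposited table, and their differences in level between genotypes and temperatures were known when they were chosen. Levels are therefore given as a description with no test, while changes over the hours of a time course and 24 h rhythms, which played no part in the choice, were tested.

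RNA-seq was run on mouse skin fibroblasts of C57BL/6 background carrying either a null genotype for Bmal1 (Bmal1-/-, called Bmal1KO here) or the wild type (WT). Bmal1 is a transcription factor gene of the circadian clock. Both genotypes were grown to confluence, given 100 nM dexamethasone for 15 min to set the cells to a common time, moved to HEPES-buffered medium in constant darkness, and first harvested 48 h later. There were 10 time courses, 5 per genotype, with 1 library per time point, and time points are given as CT in hours as the labels have them. An AM and a PM course, names whose meaning the labels leave unexplained, ran from CT0 to CT48 in steps of 3 h (17 libraries each). Courses at 27, 32 and 37 °C ran from CT0 to CT46 in steps of 2 h (24 libraries each). The labels give 3 wells per time point and genotype, and the sources used here do not give whether wells were pooled or how many cell preparations there were. P-values therefore rest on how far libraries within 1 course scatter, which may be technical. A difference in level between single courses cannot be told apart from a difference between cultures. A genotype difference seen in all 5 pairs of courses likewise cannot be told apart from a difference between cell preparations.

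IGF-1 acts on cells through the IGF-1 receptor, a tyrosine kinase encoded by Igf1r, and drives growth and survival through IRS adaptors, PI3K and AKT. The product of Igf2r is the cation-independent mannose 6-phosphate receptor, which carries lysosomal enzymes and removes IGF-2 from the cell surface. The IGF binding proteins hold IGFs in the extracellular space and can keep them from the receptor or release them near it when proteases cut the binding protein. Fibroblasts of the skin secrete both IGF-1 and several of the binding proteins.

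Before any comparison, 2 sets of libraries have to be set apart. At 27 °C and CT14 the library labelled Bmal1KO had 19.2 FPKM of Igfbp5 and 65.0 FPKM of Igfbp4, and the library labelled WT had 0.0291 FPKM of Igfbp5 and 406 FPKM of Igfbp4. Each thus carried the levels of the other genotype, and both were left out, which leaves 23 libraries in each 27 °C course and 210 libraries in all. In 6 further libraries, transcripts of at least 8000 bp were low against transcripts of at most 1500 bp, by 0.26 to 0.48 on the log2 scale relative to their own course. These were Bmal1KO at 37 °C at CT8, CT18, CT20 and CT22, WT at 37 °C at CT24 and WT PM at CT15. They were kept, and most time results that depend on them are given with and without them.

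The estimated depth was 9.92 to 32.23 M reads per library. In the 32 °C courses 1 gene, Gm26377, made up 23.31 to 34.15% of the summed FPKM in Bmal1KO and 18.84 to 24.36% in WT libraries. The top gene of a library in the other courses made up at most 4.46%. What this did to the levels of other genes at 32 °C was not tested. All 9 fibroblast markers examined averaged at least 1 FPKM in every course, and their summed level was 8501 to 22810 FPKM in Bmal1KO and 6804 to 19090 FPKM in WT libraries. Of the markers of other cell types, Cdh5 (endothelium), Adgre1 and Ptprc (macrophages), Dct and Tyr (melanocytes) and Sox10 (Schwann cells) averaged under 0.1 FPKM in every course. Other markers of the same lists and of further cell types were present. Of 4 endothelial markers 2 averaged at least 1 FPKM in WT in AM, PM, 32 and 37 °C. The 3 melanocyte markers summed to as much as 20.9 FPKM in WT, and the 5 macrophage markers to as much as 41.5 FPKM at 27 °C. The 4 adipocyte markers summed to as much as 48.6 FPKM, and the 5 markers of cartilage and bone to as much as 23.7 FPKM. The level of Bmal1 itself, named Arntl in the annotation, checks no label here: it averaged 5.8 to 8.01 FPKM in Bmal1KO and 4.97 to 7.36 FPKM in WT courses. Whether a part of the gene is missing cannot be seen in a whole-gene value and was not tested. Nr1d1, a direct target of the clock, averaged 4.17 to 11.8 FPKM in Bmal1KO and 14.2 to 22.02 FPKM in WT courses. Cdkn1a averaged 118.1 to 140.1 FPKM in Bmal1KO and 1.91 to 4.865 FPKM in WT courses. Whether that difference comes from Bmal1 or from the cell preparations was not tested.

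Promoter sequence is shown for Igfbp5 and Igfbp3, which were lower in Bmal1KO in every course, and for Igfbp4, which was higher in every course. It is also shown for Igf2r, the gene with a 24 h rhythm called in both genotypes in the PM course. The WT call was lost once the balance of long against short transcripts in each library was a covariate, as given below. Each is the 250 bases before the RefSeq start on GRCm38.p6, 5′ to 3′ on the strand of the gene, with capitals marking motifs found on either strand. The motifs were the E-box that clock factors can bind, CACGTG, and its variant with another first base, which reads AACGTG. The others were the TATA box, searched as TATAAA, the GC box that factors of the Sp family can bind, searched as GGGCGG, and the CCAAT box. The core site of ROR and REV-ERB receptors, AGGTCA, was also searched and is not in capitals, since it overlaps the nearer E-box of Igf2r. The windows lie at chr1:72874866-72875115 (minus strand) for Igfbp5, chr11:7213924-7214173 (minus strand) for Igfbp3, chr11:99040994-99041243 (plus strand) for Igfbp4 and chr17:12769707-12769956 (minus strand) for Igf2r.
Igfbp5: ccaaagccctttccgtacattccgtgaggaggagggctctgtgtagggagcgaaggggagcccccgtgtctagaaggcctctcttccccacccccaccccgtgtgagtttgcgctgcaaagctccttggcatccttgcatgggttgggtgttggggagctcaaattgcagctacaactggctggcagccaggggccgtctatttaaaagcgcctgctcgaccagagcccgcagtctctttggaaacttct
Igfbp3: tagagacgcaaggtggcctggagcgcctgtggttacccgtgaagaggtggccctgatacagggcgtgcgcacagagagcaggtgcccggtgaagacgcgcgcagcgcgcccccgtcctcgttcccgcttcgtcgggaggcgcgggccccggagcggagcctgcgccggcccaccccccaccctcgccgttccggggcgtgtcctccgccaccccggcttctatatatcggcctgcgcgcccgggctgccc
Igfbp4: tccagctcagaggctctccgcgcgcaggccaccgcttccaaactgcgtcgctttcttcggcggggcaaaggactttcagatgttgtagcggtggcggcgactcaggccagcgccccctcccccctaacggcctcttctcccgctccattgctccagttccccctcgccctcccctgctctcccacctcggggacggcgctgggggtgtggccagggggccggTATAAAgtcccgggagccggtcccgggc
Igf2r: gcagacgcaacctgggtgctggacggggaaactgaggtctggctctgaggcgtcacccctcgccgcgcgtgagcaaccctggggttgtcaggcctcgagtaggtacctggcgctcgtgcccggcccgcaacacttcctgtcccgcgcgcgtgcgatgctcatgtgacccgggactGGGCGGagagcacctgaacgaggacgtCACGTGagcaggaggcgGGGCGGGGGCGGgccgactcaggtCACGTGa
The windows of Igfbp5 and Igfbp3 held none of these motifs. The Igfbp4 window held TATAAA 28 bases before the start. The Igf2r window held an E-box 48 bases and another 7 bases before the start, with GC boxes at 75, 31 and 25 bases, the last 2 of which adjoin. Among 32851 promoter windows of this length, 6.02% held CACGTG, 12.4% held TATAAA and 32.7% held GGGCGG. Of the 9 genes, Igfbp2 and Igf2r held an E-box in these windows and none held AACGTG, which is found in 3.85% of windows. AGGTCA was in the windows of Igf1, Igf1r and Igf2r and in 14% of all windows. A match describes the letters and says nothing about binding.

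The genes lie on GRCm38 chromosome 10 (Igf1, 87858265 to 87937042), 7 (Igf1r, 67952827 to 68233668), 17 (Igf2r, 12682406 to 12769664), 11 (Igfbp3, 7206086 to 7213923, and Igfbp4, 99041244 to 99054392), 15 (Igfbp6, 102144362 to 102149511) and 5 (Igfbp7, 77349240 to 77408041). Igfbp2 (72824503 to 72852474) and Igfbp5 (72857932 to 72874884) are neighbours on chromosome 1, with 5457 bp between them on opposite strands. The noncoding gene Airn overlaps Igf2r on the opposite strand. It averaged 4.48 to 12.1 FPKM in Bmal1KO and 8.37 to 15.5 FPKM in WT courses, against at least 34.5 and 21.3 FPKM for Igf2r. Igfbp7 overlaps Polr2b on the opposite strand. The kit kept strand, but the sources used here do not say whether the counting used it, so that some reads of such pairs may have been counted to the partner.

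**Figure D1:**
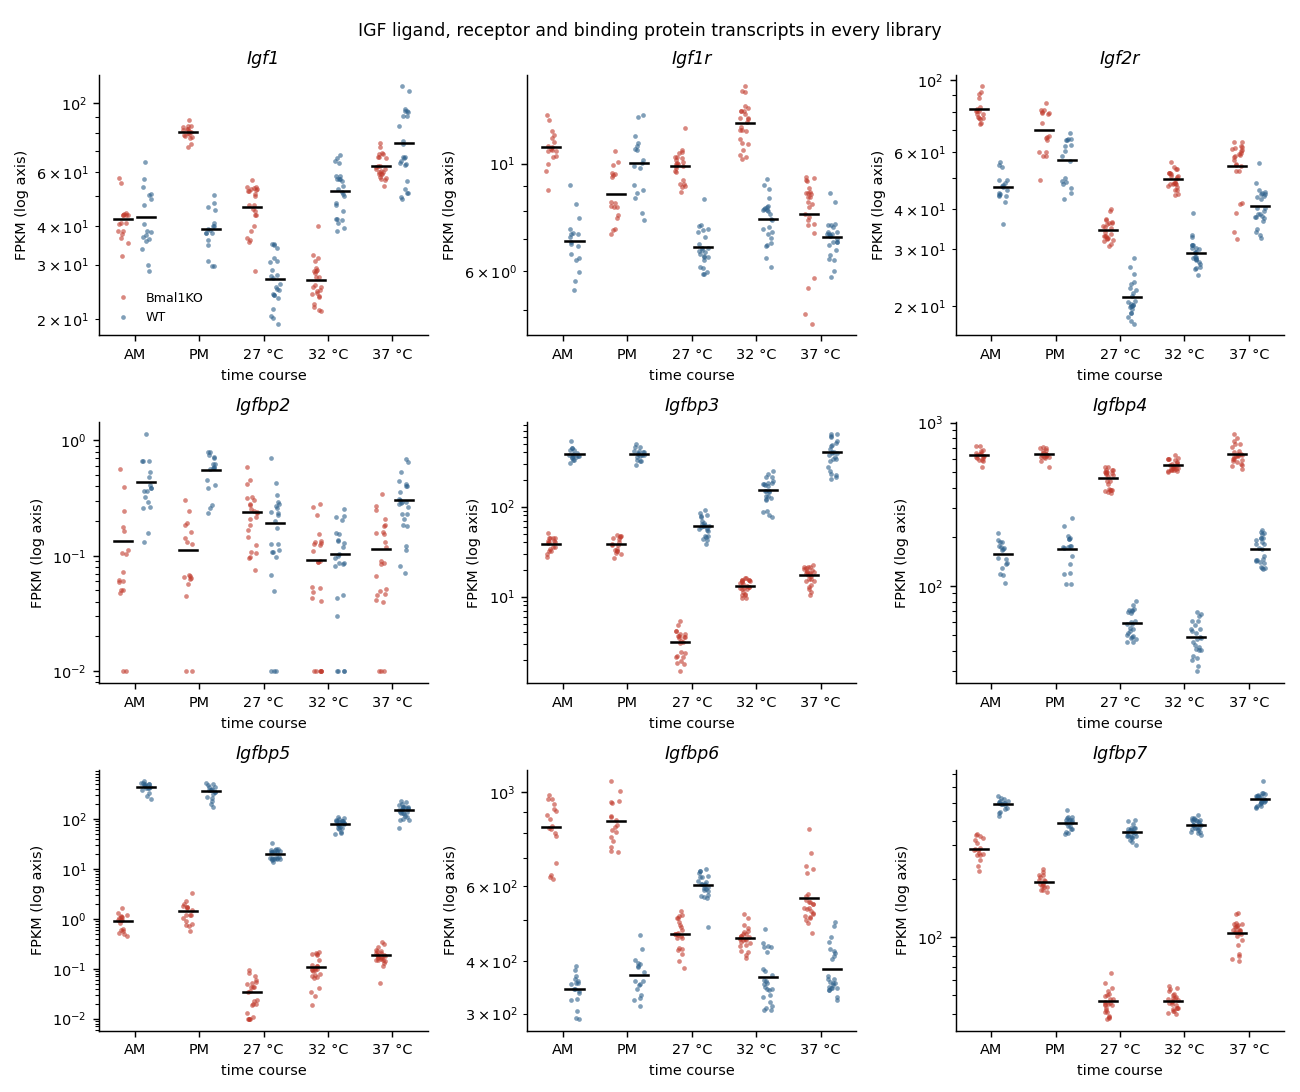
Level of each of the 9 genes (FPKM, log axis, values at 0 drawn at 0.01) in every library of the 10 courses, with Bmal1KO left of WT in each pair and a black bar at the course mean. Igfbp5 and Igfbp3 lie lower in Bmal1KO and Igfbp4 higher, with no overlap in any of the 5 pairs of courses.

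The ligand gene Igf1 was high in both genotypes, and which genotype had more of it depended on the course. It averaged 42.1 ± 6.35 FPKM in Bmal1KO and 42.9 ± 10.0 FPKM in WT in the AM course (SD, n = 17 libraries each), and 80.5 ± 3.95 FPKM in Bmal1KO and 39.02 ± 5.95 FPKM in WT in the PM course (SD, n = 17 each). In the PM course the Bmal1KO libraries had 72.2 to 88.2 FPKM (median 80.6) and the WT libraries 29.6 to 50.5 FPKM (median 38.8), so that the genotypes did not overlap. At 27 °C the Bmal1KO libraries had 28.7 to 56.3 FPKM (median 46.9), against 19.3 to 35.1 FPKM (median 25.95) in WT, and Bmal1KO was higher at 23 of 23 shared time points. At 32 °C the order was turned round, with 21.2 to 40.1 FPKM (median 25.6) in Bmal1KO and 38.6 to 68.1 FPKM (median 52.2) in WT, and Bmal1KO was higher at 0 of 24 time points. At 37 °C the genotypes overlapped widely, with 53.9 to 74.3 FPKM in Bmal1KO and 49.0 to 114 FPKM in WT. The log2 difference of Bmal1KO minus WT was thus -0.01 in AM, 1.04 in PM, 0.75 at 27 °C, -0.93 at 32 °C and -0.18 at 37 °C.

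Neither receptor gene was 2-fold apart between genotypes in any course. Igf2r was higher in Bmal1KO at every shared time point of the AM, PM, 27 and 32 °C courses and at 19 of 24 at 37 °C. Its levels were 73.2 to 95.7 FPKM (median 80.3) in Bmal1KO and 35.97 to 55.9 FPKM (median 46.7) in WT in the AM course, which did not overlap. At 32 °C they were 44.3 to 55.9 FPKM (median 48.8) in Bmal1KO and 25.1 to 38.8 FPKM (median 28.9) in WT, again apart. Averaged over the temperatures the log2 difference of Igf2r was 0.61 ± 0.025 (SE). Igf1r, the signalling receptor, averaged 7.88 ± 1.36 to 12.1 ± 1.19 FPKM over the Bmal1KO courses and 6.72 ± 0.609 to 10.0 ± 1.45 FPKM over the WT courses (SD). Its log2 difference was 0.58 in AM, 0.5 at 27 °C and 0.6 at 32 °C, but -0.19 in PM and 0.14 at 37 °C. Igf1r and Igf2r have the longest transcripts of the set, 11409 and 8887 bp, and within courses both followed the long-minus-short value of the libraries, with r = 0.72 and 0.69 over 210 libraries.

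Igfbp5, the binding protein with the largest difference between genotypes, was close to absent in Bmal1KO. Its protein binds IGFs and the extracellular matrix. In the AM course it had 0.451 to 1.67 FPKM (median 0.946) in Bmal1KO libraries and 252 to 566 FPKM (median 460.0) in WT libraries. In the PM course it had 0.576 to 3.28 FPKM (median 1.21) in Bmal1KO and 177 to 531 FPKM (median 375) in WT. The ratio of the means was 485-fold lower in Bmal1KO in AM and 250.1-fold lower in PM. At 37 °C the Bmal1KO libraries had 0.0522 to 0.341 FPKM (median 0.176), against 65.5 to 232 FPKM (median 154) in WT. At 32 °C they had 0.0186 to 0.214 FPKM (median 0.0981), against 51.1 to 109 FPKM (median 83.9) in WT. At 27 °C, Igfbp5 was listed at 0 in 3 Bmal1KO libraries and reached 0.0958 FPKM in the others, against 14.1 to 33.8 FPKM (median 21.1) in WT. A Bmal1KO library then rests on a median of 2.83 estimated reads, so no ratio is given there. On the log2(FPKM + 1) scale, which understates the change of a gene this low, the difference was -7.52 ± 0.055 (SE) in AM and PM and -5.8 ± 0.035 over the temperatures.

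Igfbp3, whose protein is the main carrier of IGF-1 in blood, was also lower in Bmal1KO in every course. It had 27.3 to 51.3 FPKM (median 39.96) in Bmal1KO and 305 to 529 FPKM (median 366) in WT in AM, and 26.8 to 48.7 FPKM (median 37.8) in Bmal1KO and 289 to 499 FPKM (median 380.0) in WT in PM. At 37 °C it had 10.5 to 22.3 FPKM (median 18.1) in Bmal1KO, against 200.3 to 642 FPKM (median 396) in WT. The ratio of the means was 9.91-fold lower in Bmal1KO in AM, 10.1-fold in PM, 19.6-fold at 27 °C, 11.7-fold at 32 °C and 23.3-fold at 37 °C, and the genotypes overlapped in no course.

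Igfbp4 went the other way. Its protein binds IGFs and is cut by the protease pappalysin-1. It had 537 to 720.2 FPKM (median 628) in Bmal1KO and 104 to 211 FPKM (median 166) in WT in the AM course. At 27 °C it had 369.9 to 535 FPKM (median 481) in Bmal1KO and 45.5 to 80.8 FPKM (median 58.1) in WT. At 32 °C it had 500.5 to 636 FPKM (median 544) in Bmal1KO and 30.04 to 69.0 FPKM (median 47.5) in WT. The mean was 4.04 times as high in Bmal1KO as in WT in AM, 3.77 times in PM, 7.69 times at 27 °C, 11.3 times at 32 °C and 3.83 times at 37 °C, and the genotypes were apart in every course.

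Igfbp7, a relative of the family that binds IGFs weakly, was lower in Bmal1KO in all 5 pairs of courses, with no overlap. The gap was small in AM, with 221 to 343 FPKM (median 283) in Bmal1KO and 424 to 541 FPKM (median 497) in WT. It was wide at 32 °C, with 40.2 to 55.8 FPKM (median 46.4) in Bmal1KO and 340.0 to 429.6 FPKM (median 383) in WT. The log2 difference was -0.77 in AM, -1 in PM, -2.91 at 27 °C, -3.01 at 32 °C and -2.3 at 37 °C. Igfbp6, whose protein prefers IGF-2, was higher in Bmal1KO in AM, with 626 to 987 FPKM (median 834) in Bmal1KO and 292 to 389 FPKM (median 344) in WT. At 27 °C it was lower in Bmal1KO at 23 of 23 time points, with 385 to 525 FPKM (median 463) in Bmal1KO and 481 to 660.0 FPKM (median 606) in WT. Igfbp2 was near the limit of detection, at course means of 0.0911 to 0.237 FPKM in Bmal1KO and 0.103 to 0.549 FPKM in WT, resting on medians of 1.7 to 14.1 estimated reads a library. It did not reach a mean of 1 FPKM and was not fitted, which leaves 8 of the 9 genes in the fits.

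Of those 8 genes, 4 were at least 2-fold apart between genotypes over AM and PM (Igfbp4 and Igfbp6 higher in Bmal1KO, Igfbp3 and Igfbp5 lower) and 4 over the temperatures (Igfbp4 higher, Igfbp3, Igfbp5 and Igfbp7 lower). Among all genes fitted, 14.5% were at least 2-fold apart over AM and PM and 12.9% over the temperatures. Libraries of the genotypes did not overlap for 6 of the 8 fitted members in AM, PM, 27 and 32 °C and for 4 at 37 °C. The share of all genes fitted was 34.1% in AM, 35.5% in PM, 28.8% at 27 °C, 37.1% at 32 °C and 29.8% at 37 °C. The genes were chosen on these differences, so nothing is read from their shares. Their median log2 difference was 0.36 over AM and PM and 0.02 over the temperatures, against -0.001 and -0.018 for all genes. In bulk libraries, fewer cells that make a transcript and less of it per cell cannot be told apart. Some markers of fibroblasts and of other cell types moved with genotype. Of 9 fibroblast markers, 1 was called higher and 2 lower in Bmal1KO over AM and PM (median log2 difference -0.5). Over the temperatures 0 were called higher and 3 lower (median -0.33). The 3 melanocyte markers summed to at most 0.736 FPKM in Bmal1KO and to 2.08 to 20.9 FPKM in WT libraries, almost wholly as Mlana, with Dct and Tyr under 0.1 FPKM on average. The 4 adipocyte markers went the other way in AM, with sums of 26.2 to 41.5 FPKM in Bmal1KO and 6.68 to 12.1 FPKM in WT. They were likewise apart in PM and at 37 °C. At the lower temperatures the sums overlapped and reached higher in WT. They were 12.8 to 23.1 FPKM in Bmal1KO and 17.5 to 31.2 FPKM in WT at 27 °C. At 32 °C they were 15.2 to 23.6 FPKM in Bmal1KO and 20.7 to 30.7 FPKM in WT. Over AM and PM, Fabp4 (log2 difference 2.42) and Pparg (1.22), the 2 fitted genes of that list, were called higher in Bmal1KO. Of 2 fitted endothelial markers only Kdr (-1.74) was called, as lower (list median -0.87). Of 2 fitted macrophage markers only Lyz2 (-1.34) was called, as lower (list median -0.82). Over the temperatures 0 of 2 fitted adipocyte markers and 0 of 1 fitted endothelial marker were called. For macrophages 1 of 2 was called lower there. The part of such cells in these differences was not tested.

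Summed over the 6 binding proteins, the level per length differed far less than single members did. The sum was 1789 ± 174 FPKM in Bmal1KO and 1815 ± 167 FPKM in WT in AM, and 1728 ± 151 FPKM in Bmal1KO and 1675 ± 163 FPKM in WT in PM (SD, n = 17 each). It was 969 ± 73.0 FPKM in Bmal1KO and 1094 ± 68.6 FPKM in WT at 27 °C (n = 23 each), 1061 ± 56.0 FPKM in Bmal1KO and 1035 ± 51.7 FPKM in WT at 32 °C, and 1332 ± 168 FPKM in Bmal1KO and 1625 ± 156 FPKM in WT at 37 °C (n = 24 each). What differed was the makeup. In AM, Bmal1KO had 46.1% of the sum as Igfbp6 and 35.5% as Igfbp4, but 2.16% as Igfbp3 and 0.0501% as Igfbp5. In WT the same course had 27.1% as Igfbp7, 24.2% as Igfbp5, 21.2% as Igfbp3 and 8.58% as Igfbp4. At 27 °C, Igfbp6 was the most abundant member in both genotypes, with 47.9% of the sum in Bmal1KO and 55.1% in WT. No test was made on the sum, whose members were chosen with their levels known.

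**Figure D2:**
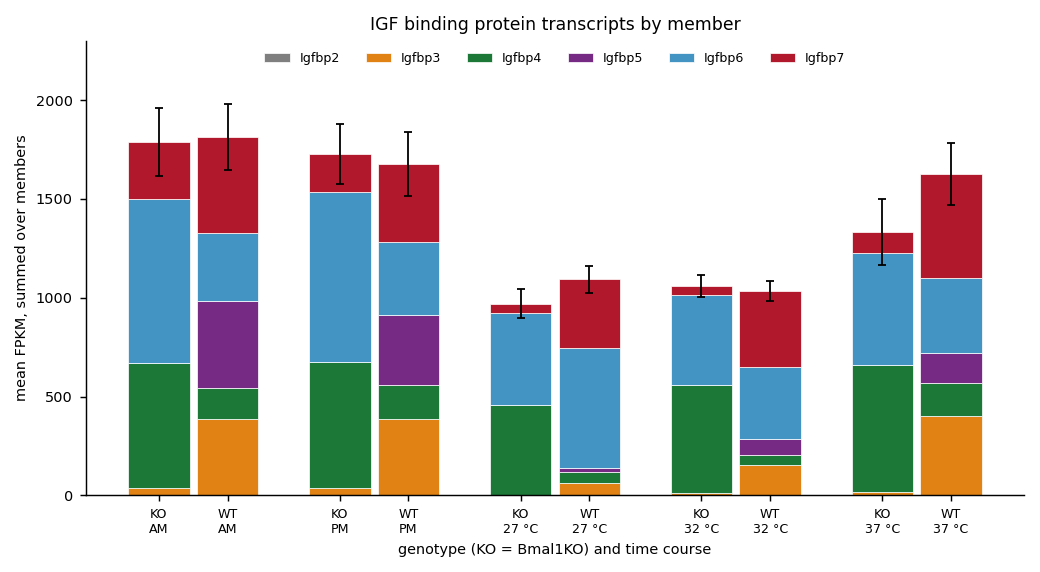
Summed level of the 6 IGF binding protein genes (FPKM, linear axis from 0) per course, as stacked bars of the mean level of each gene, with Bmal1KO left of WT and error bars showing the SD of the sum over libraries. The bars have similar heights within most pairs, 1789 against 1815 FPKM in AM, while Igfbp3 and Igfbp5 make up 21.2% and 24.2% of the WT bar in AM but 2.16% and 0.0501% of the Bmal1KO bar.

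Cooler culture went with lower levels of several members, in a way that differed between genotypes. From here, 27 and 32 °C are set against 37 °C within a genotype, with 1 course for each, so temperature and culture cannot be told apart. Igfbp3 was lower at 27 than at 37 °C in both genotypes: in Bmal1KO it had 1.49 to 5.41 FPKM (median 3.18) at 27 °C and 10.5 to 22.3 FPKM at 37 °C, and in WT 38.7 to 92.5 FPKM (median 60.4) at 27 °C and 200.3 to 642 FPKM at 37 °C. The log2 difference was -2.18 in Bmal1KO and -2.67 in WT. Igfbp5 followed the order of temperature in WT, at 20.1 ± 4.66 FPKM at 27 °C, 81.0 ± 16.2 FPKM at 32 °C and 149 ± 41.0 FPKM at 37 °C. In Bmal1KO the same temperatures gave 0.0348 ± 0.0265, 0.107 ± 0.0581 and 0.187 ± 0.0623 FPKM. The fitted log2 differences of 27 minus 37 °C, which hold the added 1 FPKM, were -0.2 in Bmal1KO, where the level is near the limit of detection, and -2.79 in WT.

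Igfbp4 stood at 456 ± 56.9 FPKM at 27 °C and 644 ± 84.3 FPKM at 37 °C in Bmal1KO, a log2 difference of -0.49. The gap was wider in WT, at 59.4 ± 10.8 FPKM at 27 °C, 48.4 ± 11.2 FPKM at 32 °C and 168 ± 31.2 FPKM at 37 °C. The log2 difference of 32 minus 37 °C was -0.22 in Bmal1KO and -1.79 in WT. Igf1 was lowest at a different temperature in each genotype. In Bmal1KO it averaged 46.3 ± 7.44 FPKM at 27 °C, 26.7 ± 4.26 FPKM at 32 °C and 62.6 ± 5.38 FPKM at 37 °C. In WT the order followed the temperature, with 27.0 ± 4.87, 52.1 ± 8.88 and 74.4 ± 19.6 FPKM. Igfbp7 was 46.5 ± 6.77 FPKM at 27 °C and 106 ± 15.5 FPKM at 37 °C in Bmal1KO, without overlap, and 350.4 ± 26.2 FPKM at 27 °C and 523 ± 37.5 FPKM at 37 °C in WT. Igfbp6 moved in opposite directions, with a log2 difference of 27 minus 37 °C of -0.27 in Bmal1KO and 0.65 in WT. For Igf2r that difference was -0.63 in Bmal1KO and -0.9 in WT.

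At least 2-fold differences of 27 against 37 °C were seen for 2 of 8 members in Bmal1KO (Igfbp3, Igfbp7), where 11.7% of all genes passed that size, and for 4 of 8 in WT (Igfbp3, Igfbp4, Igfbp5, Igf1), where 13.7% did. Igfbp5 could not reach that size in Bmal1KO, at levels well under the added 1 FPKM. With 0.1 FPKM added in place of 1, the counts were 3 of 8 in Bmal1KO and 4 of 8 in WT. At 32 against 37 °C it was 2 of 8 in Bmal1KO (Igfbp7, Igf1; 2.78% of all genes) and 2 of 8 in WT (Igfbp3, Igfbp4; 3.38%). At 27 against 37 °C the libraries did not overlap for 2 members in Bmal1KO (31.4% of all genes) and for 6 in WT (35.2%). The members had a median log2 difference at 27 against 37 °C of -0.48 in Bmal1KO and -1.14 in WT, against 0.205 and 0.207 for all genes. With median-of-ratios scaling, which sets the median gene near 0 by its construction, 38.6% of the calls over all genes were higher at 27 °C in Bmal1KO and 35.9% in WT, against 65.2% and 61.7% on the deposited values. For 32 against 37 °C the share of higher calls was 48.5% in Bmal1KO and 42.3% in WT with that scaling, against 65.5% and 58.8%. Of the members named above none turned its direction with it. At least 2-fold apart with that scaling were 2 of 8 members in Bmal1KO and 5 of 8 in WT at 27 against 37 °C. At 32 against 37 °C it was 2 of 8 in each genotype, in courses where Gm26377 took a large share of the summed FPKM. Of the 9 fibroblast markers 2 were called lower at 27 than at 37 °C in Bmal1KO (median log2 difference -0.31) and 3 in WT (median -0.85), and 0 higher. Of the 5 macrophage markers 2 averaged at least 1 FPKM at 27 °C in each genotype. The macrophage list was higher in the coolest courses, with sums of 17.99 to 41.5 FPKM at 27 °C and 1.17 to 3.07 FPKM at 37 °C in Bmal1KO, and of 24.9 to 41.4 FPKM at 27 °C and 6.43 to 10.0 FPKM at 37 °C in WT. Cd68 led this (log2 difference 3.73 in Bmal1KO and 3.19 in WT), while Lyz2 was at -0.22 in Bmal1KO and -1.25 in WT and Adgre1 and Ptprc averaged under 0.1 FPKM throughout. The adipocyte markers summed to 12.8 to 23.1 FPKM at 27 °C and 28.4 to 41.1 FPKM at 37 °C in Bmal1KO, and to 17.5 to 31.2 FPKM at 27 °C and 14.5 to 22.6 FPKM at 37 °C in WT. The part of such cells in the results was not tested.

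**Figure D3:**
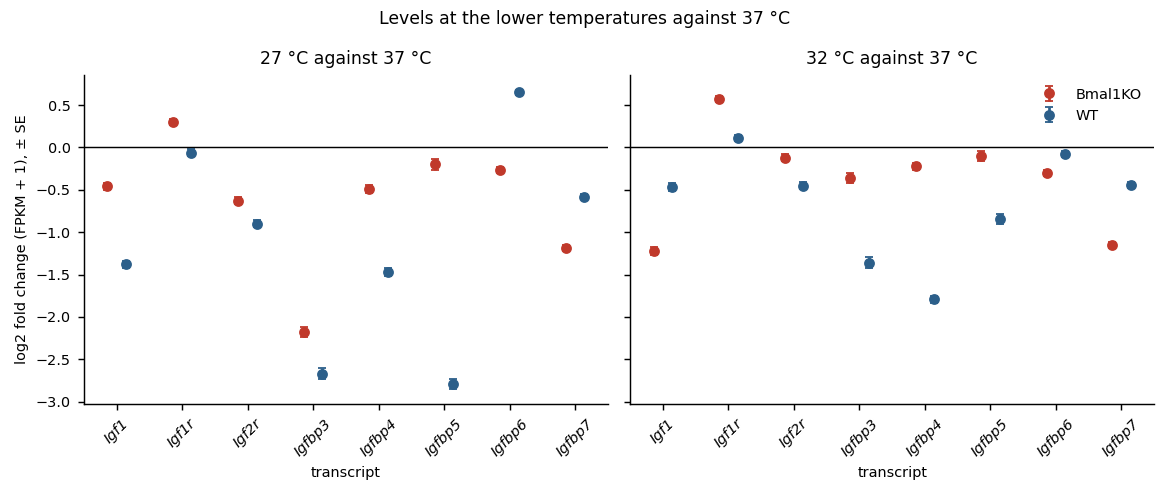
Fitted log2 fold change on the log2(FPKM + 1) scale (vertical axis, error bars SE) of each of the 8 fitted genes (horizontal axis) at 27 against 37 °C in the left panel and at 32 against 37 °C in the right panel, for Bmal1KO and WT. Igfbp3 lies far below 0 at 27 °C in both genotypes, at -2.18 in Bmal1KO and -2.67 in WT, while Igf1 at 32 °C is at -1.22 in Bmal1KO and -0.47 in WT.

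Between the PM and AM courses no member was 2-fold apart in Bmal1KO (1.25% of all genes) or in WT (2.42%). Igf1 came nearest, at 80.5 FPKM in PM and 42.1 FPKM in AM in Bmal1KO, without overlap (6.18% of all genes) and with PM higher at 17 of 17 time points (log2 difference 0.94). In WT it had 39.02 FPKM in PM and 42.9 FPKM in AM, a log2 difference of -0.12. Igfbp7 was lower in PM than in AM in both genotypes, with a log2 difference of -0.56 in Bmal1KO and -0.32 in WT. The sign of that difference was not the same in the 2 genotypes for Igf1r (-0.3 in Bmal1KO, 0.47 in WT), Igfbp5 (0.32 in Bmal1KO, -0.35 in WT) and Igf2r (-0.23 in Bmal1KO, 0.25 in WT), which was not tested.

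Within a course the tests use the time points themselves. The linear change over the time course was fitted with limma beside a 24 h rhythm, as a log2 change per 24 h, with p-values adjusted over all genes by the Benjamini-Hochberg method and called under 0.05. Of 40 combinations of a fitted gene and a course in each genotype, 21 changed in Bmal1KO (15 rising, 6 falling) and 24 in WT (5 rising, 19 falling). Over all genes, 17.6% of such combinations were called in Bmal1KO (8.27% rising, 9.31% falling) and 24.8% in WT (11.9% rising, 12.9% falling). Time after the medium change and time in culture run together here.

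Igf1 fell in all 5 WT courses. Its level at 37 °C in WT was 109.8 FPKM in the first library and 49.6 FPKM in the last, and the change was -0.63 ± 0.06 per 24 h (SE; limma, adjusted p = 2.34e-16). In AM it was -0.42 ± 0.06 (limma, adjusted p = 3.95e-07), and in the PM, 27 and 32 °C courses of WT it was -0.28, -0.22 and -0.34. In Bmal1KO, Igf1 rose in AM by 0.21 ± 0.06 (limma, adjusted p = 0.0152), fell at 27 °C by 0.24 and at 32 °C by 0.28, and was not called in PM (-0.04) or at 37 °C (0.08). The change differed between genotypes in AM, by 0.64 ± 0.085 (limma, adjusted p = 3.15e-07), and at 37 °C, by 0.7 ± 0.084 (limma, adjusted p = 3.44e-11). On the second day of the 37 °C course, from CT24 on, Igf1 averaged 64.1 ± 5.01 FPKM in Bmal1KO and 58.4 ± 7.27 FPKM in WT, and on the first day 61.0 ± 5.51 FPKM in Bmal1KO and 90.4 ± 13.7 FPKM in WT (SD, n = 12 each).

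Igfbp4 followed a similar course. It fell in all 5 WT courses, by 0.33 in AM, 0.55 in PM, 0.35 at 27 °C, 0.49 at 32 °C and 0.42 at 37 °C per 24 h. In the WT PM course it had 261 FPKM in the first library and 103 FPKM in the last, and the fall had an adjusted p of 1.15e-09 (limma). In Bmal1KO it fell at 27 °C by 0.27 and at 37 °C by 0.19, and the other 3 courses were not called. The genotypes differed in its change in PM by 0.67 ± 0.088 (limma, adjusted p = 4.71e-07), at 32 °C by 0.5, in AM by 0.4 and at 37 °C by 0.23. The call at 37 °C in Bmal1KO depends on the libraries with low long transcripts: without them the change was -0.13 (limma, adjusted p = 0.0798).

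Igfbp5 moved in opposite directions in the 2 genotypes in AM and PM. In PM it had 0.713 FPKM in the first and 2.24 FPKM in the last Bmal1KO library, against 476 and 177 FPKM in WT. Its change was 0.56 ± 0.094 in Bmal1KO (limma, adjusted p = 7.4e-05) and -0.54 ± 0.094 in WT (limma, adjusted p = 2.21e-05), and the difference of 1.1 ± 0.13 had an adjusted p of 9.46e-08 (limma). In AM the change was 0.33 in Bmal1KO and -0.27 in WT. It fell in WT at 32 °C by 0.35 and at 37 °C by 0.5, where it was not called in Bmal1KO, at levels well under the added 1 FPKM.

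Igfbp3 rose in WT at 32 °C by 0.73 ± 0.083 (limma, adjusted p = 1.07e-12) and at 37 °C by 0.69 ± 0.083 (limma, adjusted p = 1.85e-11). At 37 °C it had 200.3 FPKM in the first WT library and 639 FPKM in the last. In Bmal1KO it changed in all 5 courses, rising by 0.29 in AM, 0.22 in PM, 0.32 at 32 °C and 0.45 at 37 °C and falling at 27 °C by 0.33. Igfbp7 changed in the same directions as Igfbp3 in the 5 Bmal1KO courses, by 0.22, 0.13, 0.22 and 0.23 in those that rose and -0.13 at 27 °C, and in WT only the PM course was called, at -0.13. Igfbp6 rose in AM by 0.2 and in PM by 0.24 in Bmal1KO, and in WT by 0.15 in PM and by 0.2 at 37 °C, but fell at 32 °C by 0.25.

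Of the receptors, Igf2r fell in WT at 27 °C by 0.17, at 32 °C by 0.15 and at 37 °C by 0.25, and was called in no Bmal1KO course. Igf1r rose in Bmal1KO at 32 °C by 0.15 and at 37 °C by 0.2, and in WT in PM by 0.24. The rise of Igf1r at 37 °C was 0.1 without the libraries with low long transcripts (limma, adjusted p = 0.107). With the long-minus-short value of each library as a covariate, the WT PM rise of Igf1r was 0.13 (limma, adjusted p = 0.0503) and the difference between genotypes in the change of Igf2r at 37 °C was 0.11 (limma, adjusted p = 0.117).

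Between genotypes the change over time differed for 5 of 8 members in AM (7.54% of all genes), 4 in PM (6.37%), 0 at 27 °C (15.7%), 5 at 32 °C (12.1%) and 6 at 37 °C (23.7%), by the same limma test. The counts at 32 and 37 °C include Igfbp5, whose Bmal1KO level lay well under the added 1 FPKM, which keeps its fitted change near 0.

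**Figure D4:**
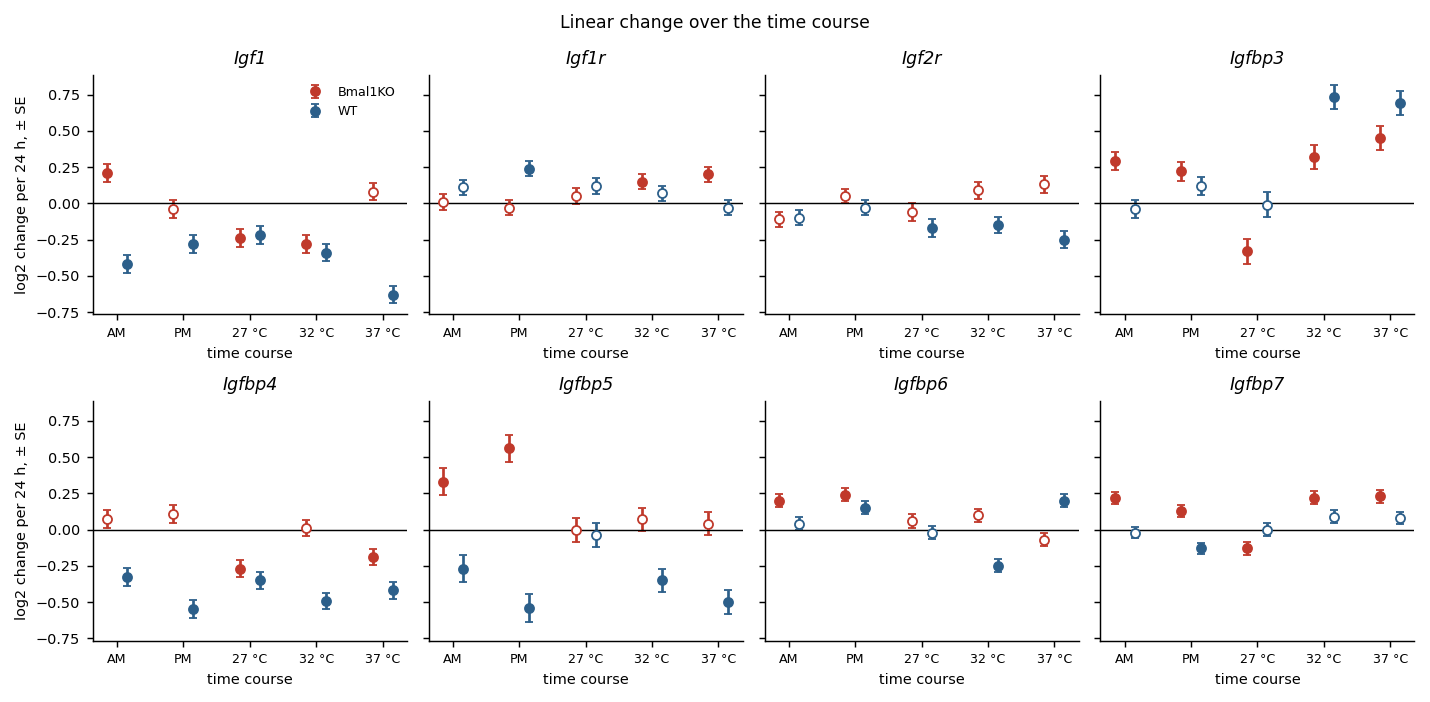
Linear change over the time course (vertical axis, log2 per 24 h, error bars SE) of each fitted gene in the 5 pairs of courses (horizontal axis), with Bmal1KO left of WT and filled symbols for an adjusted p under 0.05. Igf1 and Igfbp4 lie below 0 in all 5 WT courses, down to -0.63 for Igf1 at 37 °C, while Igfbp3 lies above 0 in 4 of 5 Bmal1KO courses.

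Rhythms of 24 h were few. They were called in 4 of 40 combinations in Bmal1KO (5.34% over all genes) and 2 of 40 in WT (3.37%). Igf2r had one in the PM course of both genotypes, with an amplitude from mid-level to peak of 0.29 ± 0.05 log2 and a peak at CT 5.1 h in Bmal1KO (limma, adjusted p = 0.00089; 3.02% of all genes called), and of 0.22 ± 0.04 and CT 4.5 h in WT (limma, adjusted p = 0.00389; 5.61% of all genes). In the PM courses the long-minus-short value of the libraries ran from -0.17 to 0.17 in Bmal1KO and from -0.26 to 0.28 in WT, and was itself high from CT24 to CT33. With it as a covariate the amplitude of Igf2r was 0.18 in Bmal1KO (limma, adjusted p = 0.0111) and 0.09 in WT (limma, adjusted p = 0.263).

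At 27 °C in Bmal1KO, Igfbp3 had an amplitude of 0.43 ± 0.07 and a peak at CT 15.8 h (limma, adjusted p = 1.85e-05), in a course where 9.85% of all genes were called. With no linear term in the fit its adjusted p was 0.0705. Igfbp7 in the same course had 0.15 ± 0.04 and a peak at CT 1 h (limma, adjusted p = 0.0068). Igfbp5 in WT at 37 °C had 0.26 ± 0.07 and a peak at CT 17.2 h (limma, adjusted p = 0.0223), and 4.92% of all genes were called in that course. That call was lost with 4 of the alternatives tried, the adjusted p being 0.633 with no linear term.

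Igfbp6 in Bmal1KO at 37 °C had an amplitude of 0.16 ± 0.04 and a peak at CT 18.4 h (limma, adjusted p = 0.00563), in a course where 8.46% of all genes were called. It had 647 FPKM at CT8, 660.0 at CT18, 718 at CT20 and 821 at CT22, which are the 4 libraries with low long transcripts, against 465 to 670.2 FPKM in the other 20 libraries. Igf2r in the same 4 libraries had 41.6, 38.8, 32.2 and 33.9 FPKM, against 41.7 to 64.5 FPKM in the others. Without all 6 such libraries the amplitude of Igfbp6 was 0.1 (limma, adjusted p = 0.332). Genotype differences in rhythm were called at 37 °C for Igfbp6 (0.23; limma, adjusted p = 0.012) and Igf2r (0.25; limma, adjusted p = 0.0316), where 6.1% of all genes were called. Without those libraries the difference was 0.17 for Igfbp6 (limma, adjusted p = 0.0961) and 0.1 for Igf2r (limma, adjusted p = 0.536).

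**Figure D5:**
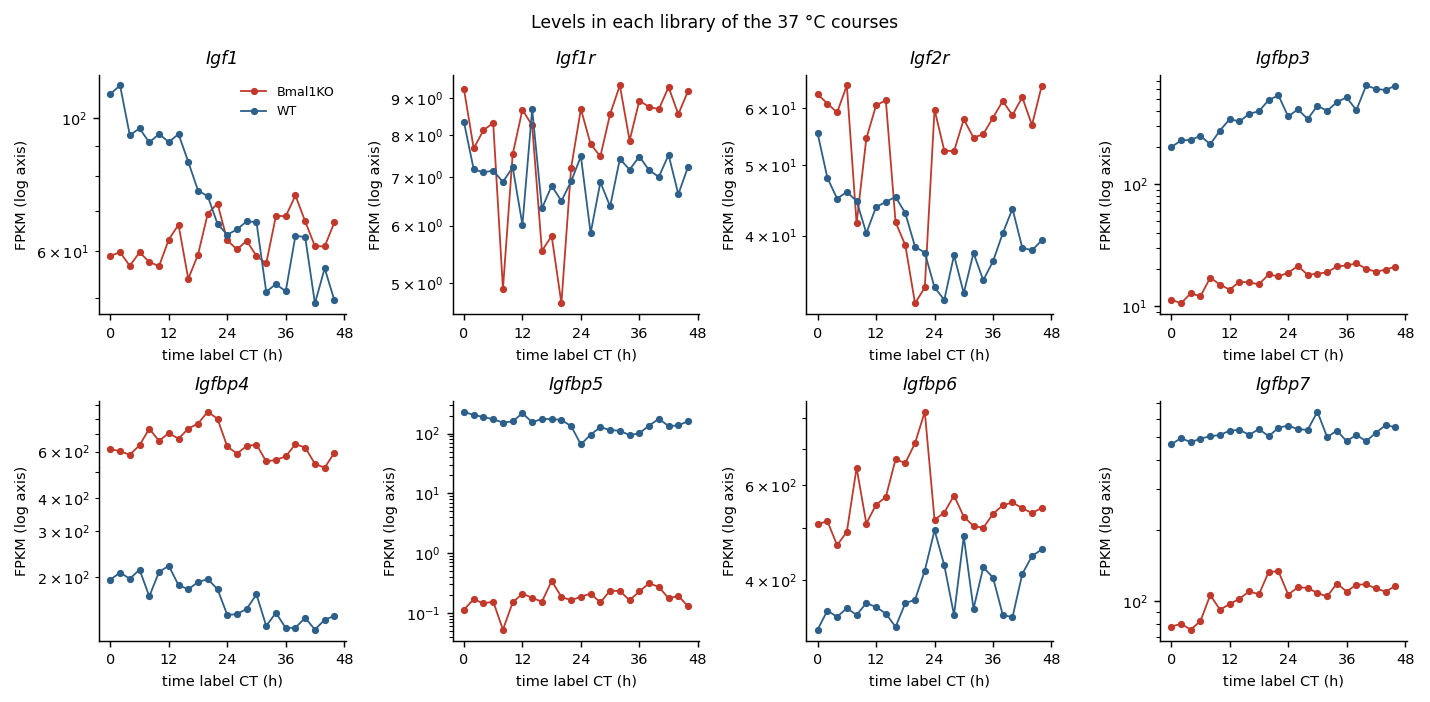
Level of the 8 fitted genes (FPKM, log axis that differs between panels) against time (CT, h) in the 37 °C courses of Bmal1KO and WT, 1 point per library. In WT, Igf1 is lower in the last library (49.6 FPKM) than in the first (109.8 FPKM), and in Bmal1KO Igf2r is low at CT8 and from CT16 to CT22.

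Around these genes, 65 further genes of the pathway were looked at by role. Their levels were called with the same limma fits (adjusted p under 0.05 and at least 2-fold). The lists were chosen with earlier results of these data known, and the p-values rest on scatter within courses. The calls are thus a description, and nothing is read from their counts. Over AM and PM, 53 of them were fitted, of which 6 were higher and 9 lower in Bmal1KO, where 14.5% of all genes were called. Over the temperatures, 52 were fitted, of which 4 were higher and 8 lower, against 12.9% of all genes. At 27 against 37 °C, 3 rose and 3 fell in Bmal1KO (11.7% of all genes) and 3 rose and 9 fell in WT (13.7%). At 32 against 37 °C, 0 rose and 1 fell in Bmal1KO (2.74%) and 1 rose and 0 fell in WT (3.32%).

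Proteases that cut binding proteins were listed with the stanniocalcins, which inhibit pappalysin-1. This list had a median log2 difference of -2.51 over AM and PM, 1 of 4 being higher and 3 lower in Bmal1KO. Over the temperatures 3 of 4 were lower, and the median was -1.28. Htra1, a secreted protease that cuts IGFBP5 among others, averaged 15.7 ± 2.59 FPKM in Bmal1KO and 440.2 ± 27.5 FPKM in WT in the AM course, a difference of -4.61 over AM and PM. Pappa, which encodes pappalysin-1, the protease of IGFBP4, averaged 0.0907 FPKM in Bmal1KO and 4.81 FPKM in WT in AM, and differed by -2.65. Its inhibitor genes moved apart, Stc2 being lower in Bmal1KO, at -2.38, and Stc1 higher, at 1.37.

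No other ligand or carrier of the list averaged 1 FPKM in any course. Igf2, the other IGF, averaged 0.393 to 0.943 FPKM in Bmal1KO and 0.0457 to 0.186 FPKM in WT courses, and Igfals, the acid labile subunit of the blood complex, at most 0.221 FPKM. Of the insulin receptor and its adaptors, 1 of 9 was higher and 1 lower in Bmal1KO over AM and PM (median 0.11). Irs1, the adaptor that passes the IGF-1 receptor signal to PI3K, was lower, at -1.22 over AM and PM and -1.37 over the temperatures, and Grb10, an adaptor that dampens the receptor, was higher by 1.83 over AM and PM. Among 18 PI3K and AKT genes, 0 were higher and 2 lower over AM and PM (median -0.24), including Pik3r1 at -1.02, and Mtor was higher at 27 than at 37 °C by 1.33 in Bmal1KO and 1.62 in WT.

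Of the growth hormone axis 1 of 5 was higher in Bmal1KO over AM and PM (median 0.44), the growth hormone receptor gene Ghr, by 1.21. Igf2bp3, an IGF2 mRNA-binding protein, was higher in Bmal1KO by 1.65 over AM and PM and by 2.45 over the temperatures, as 1 of 2 in its list, with 68.2 FPKM in Bmal1KO and 9.01 FPKM in WT at 27 °C. None of the 4 mannose 6-phosphate sorting genes was called (median 0.49 over AM and PM, with 14.5% of all genes called). Among 8 fitted genes with an IGFBP-like amino-terminal domain, 2 were higher and 2 lower over AM and PM (median -0.04), Htra3 at 1.52 and Kazald1 at 1.16 against Cyr61 at -1.08 and Crim1 at -1.07. At 27 against 37 °C in WT, 1 of these 8 rose and 5 fell, the largest being Ctgf at 1.91 and Cyr61 at -1.52.

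Likeness of pattern was measured as Pearson's r of log2(FPKM + 1) over 210 libraries against 13164 genes, and is a description. Over all courses, where genotype and temperature set most of the spread, Igfbp5 was most like Lpar4 (r = 0.986), Igfbp3 most like Lhfpl2 (0.979), Igfbp7 most like H2-D1 (0.976) and Igfbp4 most like Col6a2 (0.955). After each course's own mean was removed the values were lower, with Igfbp3 most like Gas6 (0.818), Igfbp4 most like Ptn (0.791), Igf1 most like Olfml3 (0.761) and Igf2r most like Flnc (0.836). Between members within courses, r was 0.65 for Igfbp4 and Igf1, 0.6 for Igfbp4 and Igfbp5, 0.5 for Igf1r and Igf2r and -0.43 for Igfbp6 and Igf2r. The libraries of a course share their culture, and the last 2 pairs also share the long-minus-short value, with which Igfbp6 had r = -0.54.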

How the data were processed

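Poly(A)-selected, stranded, single-end RNA-seq libraries of both genotypes were analysed, from the levels that the authors deposited as FPKM (fragments scaled to transcript length and mapped reads), per the file headers. Cuffdiff, TopHat and TopHat2 2.1.0, with the mouse build GRCm38, appear in the submitters' processing notes. The sources used here give no annotation, no scaling between libraries and no strand setting. FPKM holds no counts. Depth was estimated from what 1 read is worth in 1357 low genes, where 94.7% of low values lay within 0.15 of a whole read, and ran from 9.92 to 32.23 M reads (median 23.44). A low gene is thus the less certain, and no counting intervals are given. Since FPKM is scaled to the mapped reads of a library, transcripts that take many reads can shift the others. In the 32 °C courses Gm26377 had a large share of the summed FPKM, mostly larger in Bmal1KO than in WT. A share of summed FPKM is not a share of reads, and whether Gm26377 shifted other genes was not tested.

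The scale of analysis was log2(FPKM + 1). Genes averaging 1 FPKM or more over a fit's libraries were fitted with limma 3.58.1 in R 4.3.3 (lmFit, eBayes with an intensity trend, data.table, version 1.17.8), 13307 genes in the fit of the AM and PM courses and 13031 in the fit of the temperature courses, with an intercept, a linear time term and a 24 h cosine and sine per course. P-values are two-sided and adjusted by Benjamini-Hochberg over all genes. Fold changes of low genes are understated by the added 1 FPKM. Gene names and positions were read from a GRCm38 annotation, which matched 47217 of 47631 gene IDs, and promoters from RefSeq on GRCm38.p6, where all 9 genes matched. Other steps used Python 3.11.15 with pandas 2.3.3 and numpy 2.4.6, and figures drawn with matplotlib 3.10.9.

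The genes and the pathway lists were chosen with earlier results of these data known. All 9 members are named, with up to 4 called genes of the largest change per list and comparison, and up to 3 genes of the highest r for likeness. The result of 1 pathway list is not reported here. The fits were tested on simulated data. Alternatives were a pseudocount of 0.1 FPKM, no low-value filter, median-of-ratios scaling, no intensity trend, the time point as a block, plain course means, no linear term, and leaving out or keeping in doubtful libraries. The 2 alternatives on transcript length were chosen after seeing the data. Shared time points carry no pairing of cultures in the labels.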

Additional observations from a re-analysis of the deposited data

Results flagged for a closer look

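The change over the time course differed between genotypes by the limma test of the difference for 20 combinations of a gene and a course, given here as Bmal1KO minus WT in log2 per 24 h. In AM these were Igf1 at 0.64, Igfbp5 at 0.61, Igfbp4 at 0.4, Igfbp3 at 0.33 and Igfbp7 at 0.24. In PM they were Igfbp5 at 1.1, Igfbp4 at 0.67, Igfbp7 at 0.26 and Igf1r at -0.26. At 32 °C they were Igfbp4 at 0.5, Igfbp5 at 0.42, Igfbp6 at 0.35, Igf2r at 0.25 and Igfbp3 at -0.41. At 37 °C they were Igf1 at 0.7, Igfbp5 at 0.54, Igf2r at 0.38, Igf1r at 0.23, Igfbp4 at 0.23 and Igfbp6 at -0.28. The values of Igfbp5 at 32 and 37 °C hold little but the change in WT. Its Bmal1KO level there lay well under the added 1 FPKM, which keeps its fitted change near 0. With the long-minus-short value as a covariate, 4 of these 20 calls were lost, among them Igf2r and Igfbp6 at 37 °C and Igf1r in PM. Without the 6 libraries with low long transcripts, 1 of these 20 calls was lost. The 24 h rhythm was called different at 37 °C for Igfbp6 (0.23) and Igf2r (0.25). Both of these calls were lost without the 6 libraries with low long transcripts, with that covariate, and with no linear term.

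For 2 genes, levels moved one way at every shared time point of one contrast and the opposite way at every shared time point of the other, and these differences were not tested. Igfbp6 differed by -0.27 in Bmal1KO and by 0.65 in WT between 27 and 37 °C. Its Bmal1KO minus WT difference was 1.26 in AM, 1.21 in PM and 0.55 at 37 °C, but -0.38 at 27 °C. Igf1 differed by 0.77 in Bmal1KO and by -0.91 in WT between 27 and 32 °C. Its Bmal1KO minus WT difference was 1.04 in PM and 0.75 at 27 °C, but -0.93 at 32 °C.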

How the results depend on the processing

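Level differences moved by less than the spread between libraries in 1168 of 1200 recomputed values, and further in 32. In all, 10 small values turned their sign, such as Igfbp3 between PM and AM in WT (0.01 with plain course means) and Igf1r at 32 against 37 °C in WT (-0.02 with median-of-ratios scaling). The number of rhythm calls in WT was 1 instead of 2 with a pseudocount of 0.1 FPKM, 1 with the CT14 libraries kept in, and 0 with the long-minus-short value as a covariate, where the count over all genes was 1322 against 2213. With a pseudocount of 0.1 FPKM the calls over all genes at 32 against 37 °C were 645 against 357 in Bmal1KO and 725 against 432 in WT, and Igfbp5 differed between genotypes by -8.38 over AM and PM. With the time point as a replicate block, 4 members stayed at least 2-fold apart over AM and PM, and 1933 genes were called in place of 1935. Of the recomputed calls, 21 of 315 for changes over time, 12 of 140 for their genotype differences, 10 of 48 for rhythms and 8 of 16 for rhythm differences were lost. With the CT14 libraries kept in, the rhythm of Igfbp7 in Bmal1KO at 27 °C had an adjusted p of 0.502. With the long-minus-short value as a covariate, calls of a change over time were lost for Igfbp7 in WT PM (adjusted p = 0.206) and of a genotype difference in it for Igf1r in PM (0.0623) and Igfbp6 at 37 °C (0.197), all by limma, and the cause was not tested. Depth limits Igfbp2 and Igfbp5 in Bmal1KO.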
